A study of Mus musculus with 8 samples.

Results

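Ionotropic transmitter receptors are ion channels that open when a neurotransmitter binds, and each is built from several subunits encoded by separate genes. The 56 mouse genes described here were taken by name from the 54532 genes of the count table, as the protein-coding genes of the AMPA (Gria), kainate (Grik), NMDA (Grin), GABA-A (Gabr), GABA rho (Gabrr), glycine (Glra, Glrb) and nicotinic acetylcholine (Chrn) receptor subunits. The rule reads gene names alone, but it was set with earlier results of these data known. RNA was sequenced in bulk from 4 retinal samples of *Mettl3*-CKO mice, which were *Six3-Cre*+; *Mettl3* floxed/floxed, and from 4 samples of controls. The exact genotype of the controls was not given in the labels. The study names littermates as controls in other experiments, and its RNA sequencing methods do not say whether these controls were littermates. Both groups were labelled as postnatal day 7. The text on RNA sequencing in the methods gives the day before instead. *Mettl3* encodes the catalytic subunit of the enzyme complex that writes N6-methyladenosine (m6A) on RNA. *Six3-Cre* removes the floxed gene in retinal progenitor cells, from which the neurons and the Müller glia of the retina descend, and the study shows its efficient action in the central retina, so cells of other origin and peripheral cells may keep the gene. The labels do not say whether a sample is 1 animal or a pool.

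In the retina, glutamate is the transmitter of photoreceptors, bipolar cells and ganglion cells, and AMPA and kainate receptors carry its fast excitation. GABA-A, GABA rho and glycine receptors are chloride channels through which amacrine and horizontal cells act. In the first days after birth, before the eyes open, acetylcholine released by starburst amacrine cells drives waves of activity through nicotinic receptors. Subunits are also exchanged during development, as when an early subunit such as *Grin2b* or *Glra2* gives way in part to *Grin2a* or *Glra1*.

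AMPA and kainate subunits are shown first at the sequence level, because they share a pore stretch in which a single glutamine codon, the Q/R site, sets how much calcium the channel passes. In *Gria2*, *Grik1* and *Grik2* this codon is known to be edited in the RNA to one for arginine. Each 30-base stretch below is the coding strand of GRCm38, read from GENCODE transcripts, with the glutamine codon in capitals.
Gria1: gccttcatgCAGcaaggatgtgacatttcc
Gria2: gcctttatgCAGcaaggatgcgatatttcg
Gria3: gcttttatgCAGcaaggatgtgatatttct
Gria4: gcctttatgCAAcaaggatgtgacatttca
Grik1: gctctcatgCAGcaaggatcggagctgatg
Grik2: gctctcatgCAGcaaggttctgagctcatg
Grik3: tccctgatgCAGcaaggatctgaactgatg
Grik4: ggcttcatgCAGcaaggctccactattgcc
Grik5: ggcttcatgCAGcagggctcggagatcatg
The genomic codon was CAG in 8 of these 9 genes and CAA in *Gria4*. It is codon 607 of *Gria2*, in exon 11 at chr3:80706911-80706913, and codon 621 of *Grik2*, in exon 13 at chr10:49244329-49244331, both on the minus strand. The deposited values are counts per gene, so edited and unedited transcripts were not told apart.

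Read counts summed to between 16227095 and 20281517 per sample, and the 56 subunits held between 0.154% and 0.170% of them. *Mettl3* itself, counted over the whole gene, had 33.8, 32.5, 29.4 and 29.3 CPM (counts per 1e6 counts of the sample, TMM-scaled) in control replicates 1 to 4 and 21.1, 29.6, 21.3 and 24.3 CPM in *Mettl3*-CKO replicates 1 to 4. Its log2 fold change was -0.38 (SE 0.12) with overlapping groups and an adjusted p of 0.0602 (edgeR), so it was not called at the threshold of 0.05. No marker gene listed for the retinal cell classes was at 0 in all samples. Between the groups, 7 of 12 rod markers fell (summed level 1947 to 3626 CPM in *Mettl3*-CKO, 3515 to 5577 CPM in controls) and 6 of 15 proliferation markers rose (2408 to 3300 against 1793 to 2239 CPM). Of 9 tested vascular markers 7 fell, with overlapping sums of 542 to 640 CPM in *Mettl3*-CKO samples and 563 to 659 CPM in controls. Of 5 astrocyte markers 2 fell, and their sums did not overlap (54.7 to 83.7 against 95.1 to 215 CPM). Of 9 tested retinal pigment epithelium markers 4 fell and 1 rose, and of 9 tested Müller glia markers 2 fell and 1 rose. Of 13 amacrine markers 2 fell, of 9 tested cone markers 1 fell, and 1 rose of 11 ganglion cell markers and of 8 tested horizontal cell markers. Of 7 tested bipolar markers 1 rose and 1 fell. Of 9 tested lens markers 6 fell. Markers are said to rise or fall at an adjusted p under 0.05 (edgeR), which 6.49% of all genes tested passed as higher and 4.05% as lower. Control replicate 4 held 5074 CPM of lens genes, against 8.47 to 99.7 CPM in the other 7 samples, and control replicate 1 was the highest of all 8 samples in 20 of the 45 subunits tested. The part of these differences in the results on receptor subunits was not tested, except where values without a sample are given. In bulk samples, fewer cells of a type and less RNA per cell cannot be told apart.

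Of the 56 subunits, 45 had enough counts to be tested, and 2 of these (4.44%) passed an adjusted p of 0.05 in edgeR's quasi-likelihood test. The kainate receptor subunit *Grik2* fell and the NMDA receptor subunit *Grin3a* rose in *Mettl3*-CKO retinas. Over all 17998 genes tested, 10.5% were called, 6.49% as higher and 4.05% as lower. The CPM ranges of the groups did not overlap for 3 of the 45 subunits (6.67%), and 2 of the 3 lay below controls (*Grik2*, *Chrnb4*) and 1 above (*Grin3a*). Among all genes tested the groups did not overlap for 17.4%, with the *Mettl3*-CKO samples above for 9.77% and below for 7.58%. Both shares of the subunits were thus below those of the background, on few subunits, and the difference was not tested. The median log2 fold change of the 45 subunits was -0.03, beside -0.01 over all genes tested, and 20 of them had a positive and 25 a negative estimate.

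A subunit that was not called is not thereby shown to be unaltered, so the 95% intervals were examined. The interval lay within a 2-fold change in either direction for 41 of the 45 tested subunits, within 1.5-fold for 29 and within 1.25-fold for 8. The subunits whose interval reached beyond 2-fold were *Gabrr1*, *Glra3*, *Chrna2* and *Grin2c*, with 82 to 484 counts over all samples. The 11 subunits without a test had at most 55 counts over all 8 samples. These were *Glra1* (55 counts), *Gabrr2* (52), *Glra4* (51), *Chrna1* (43), *Chrne* (42), *Chrng* (31), *Chrnd* (2) and *Gabrp* (1), and no read was counted for *Gabra6*, *Chrna9* or *Chrna10*. A count of 0 in a sample allows a level of up to 0.148 to 0.185 CPM, depending on its depth.

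**Figure D1:**
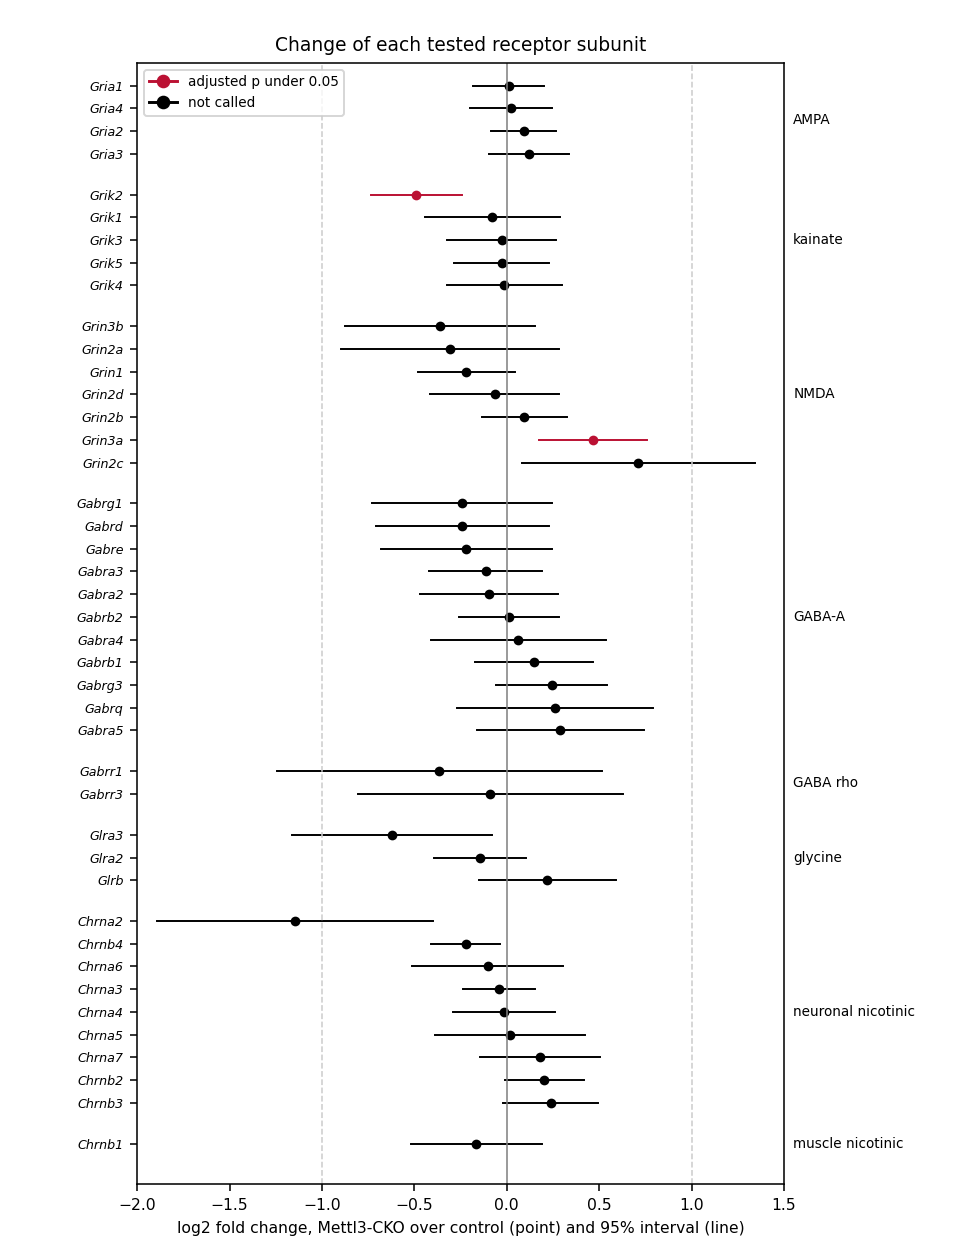
Log2 fold change (*Mettl3*-CKO over control, x axis) of 42 of the tested subunits, grouped by receptor class, with points for the estimate and lines for the 95% interval from edgeR; dashed lines mark a 2-fold change. *Grik2* at -0.49 and *Grin3a* at 0.47 are called, and 38 of the 42 intervals lie between the dashed lines.

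Levels of different genes are compared here only per length, as FPKM (reads of a sample scaled to a common depth and divided by gene length in kilobases) calculated from the counts. In control retinas, 31 of the 56 subunits had a mean of at least 1 FPKM and 9 of at least 10 FPKM. The highest was *Grik5*, at 26.3 ± 4.45 FPKM (SD, n = 4), followed by *Chrnb4* (18.6 ± 0.555) and *Gria4* (18.2 ± 2.62), which differed by less than their spread. Summed by class, neuronal nicotinic subunits led in controls with 64.96 ± 4.32 FPKM, or 26.9% of the sum over all subunits. GABA-A subunits summed to 53.3 ± 9.23 FPKM, kainate subunits to 48.5 ± 6.35, AMPA subunits to 43.95 ± 4.01, glycine subunits to 17.4 ± 3.55 and NMDA subunits to 8.60 ± 0.656. Thus by this measure NMDA receptor RNA, at 3.56% of the sum, was scarcer than that of the other glutamate receptors. The gene lengths span all annotated exons and can exceed that of a transcript. For *Grin1* the length was 9700 bases, against 4276 in the transcript with its longest coding part. Classes also differ in their number of genes, so ranks and shares of classes depend in part on both. The sum over all classes was 242 ± 14.6 FPKM in controls and 242 ± 9.51 in *Mettl3*-CKO retinas, and the groups overlapped for every one of the 8 class sums. GABA-A subunits, for example, summed to 67.1, 49.6, 48.5 and 48.00 FPKM in control replicates 1 to 4 and to 55.4, 53.1, 59.9 and 58.8 FPKM in *Mettl3*-CKO replicates 1 to 4. Control replicate 1 stood above all other samples there, and the other 3 controls lay below all 4 *Mettl3*-CKO samples.

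**Figure D2:**
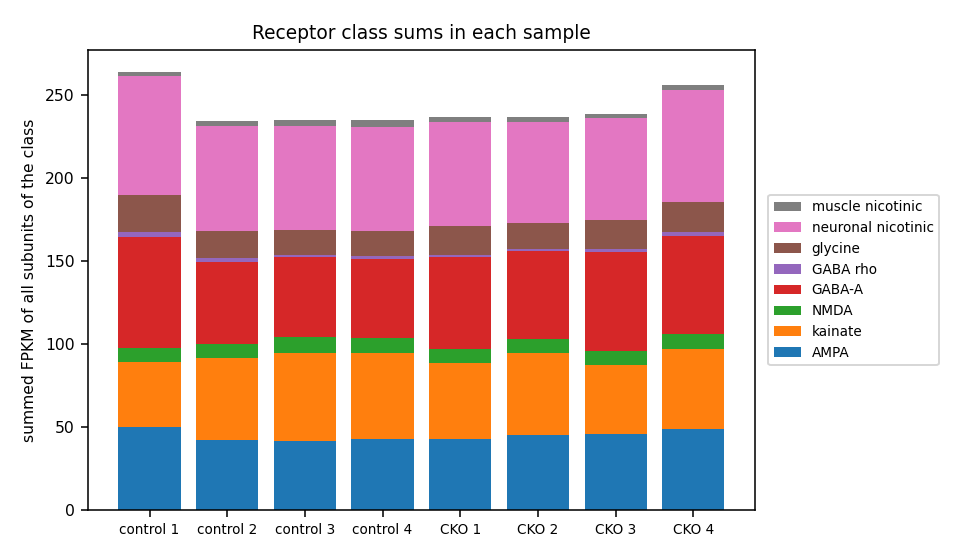
Summed FPKM of all subunits of each receptor class (stacked colours, y axis) in each of the 8 samples (x axis). The totals run from 234 FPKM in control replicate 2 to 264 FPKM in control replicate 1, and no class separates the groups.

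**Figure D3:**
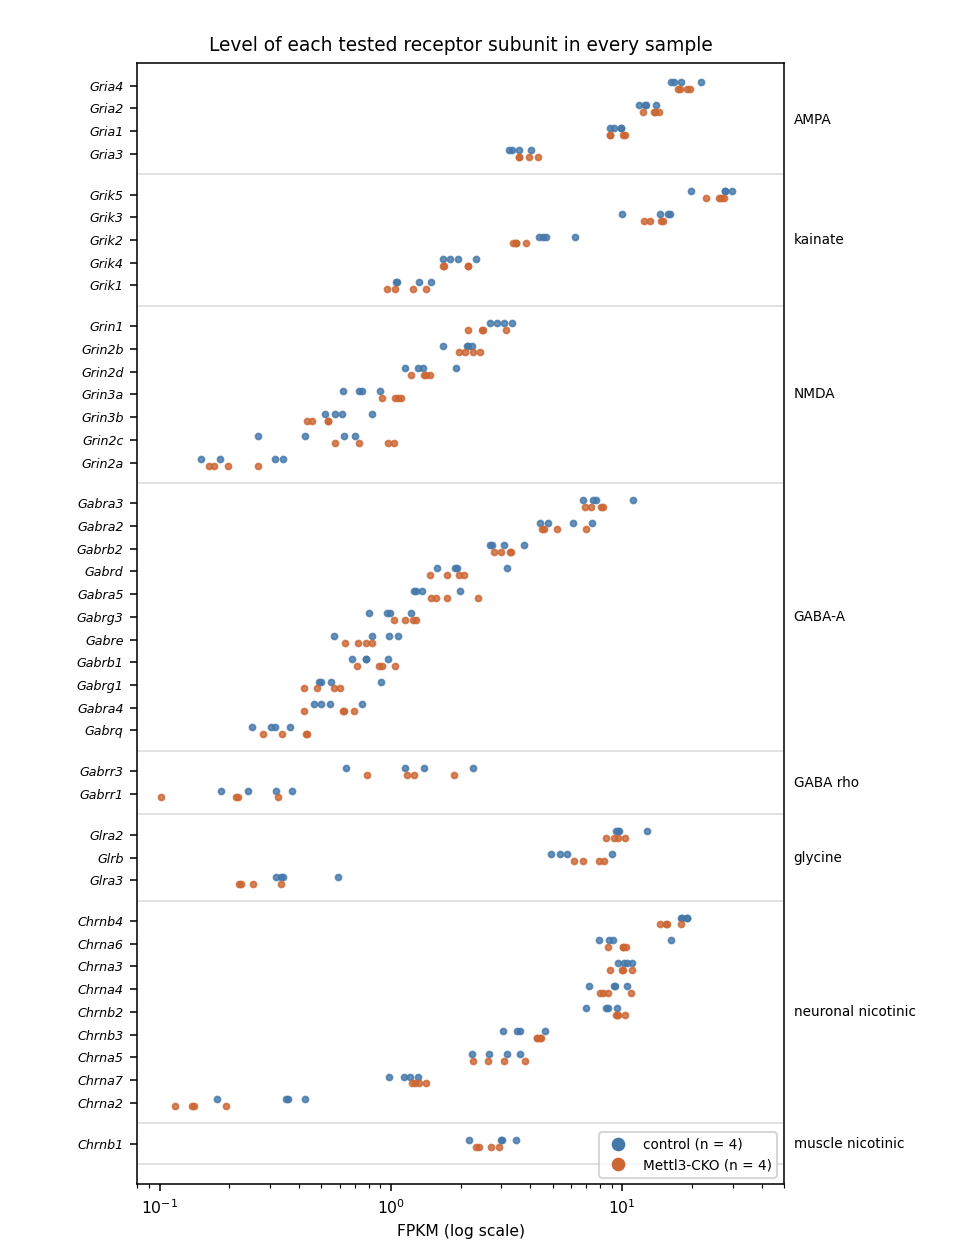
FPKM (x axis, log scale) of 42 of the tested subunits in every sample, ordered within each class by their mean in controls, with blue points for the 4 controls and orange points for the 4 *Mettl3*-CKO samples. In controls *Grik5* is highest and *Grin2a* lowest, and the 2 colours overlap for all but *Grik2*, *Grin3a* and *Chrnb4*.

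AMPA receptors are assembled from the 4 subunits GluA1 to GluA4, encoded by *Gria1* to *Gria4*, and all 4 genes were tested with none called. *Gria4*, which had the highest level per length of the 4, had 139, 106, 102 and 113 CPM in controls 1 to 4 and 111, 110.3, 121 and 124 CPM in *Mettl3*-CKO samples 1 to 4. *Gria2*, whose edited subunit makes the channel nearly impermeable to calcium, had 217, 195, 183 and 197 CPM in controls and 191, 213, 215 and 224 CPM in mutants. Both groups overlapped for each gene. The log2 fold change was 0.02 (SE 0.10, 95% interval -0.20 to 0.24) for *Gria4* and 0.09 (SE 0.08, interval -0.09 to 0.27) for *Gria2*. *Gria1* and *Gria3* had estimates of 0.01 and 0.12. The intervals of all 4 genes lay between -0.20 and 0.34. The ratio of *Gria2* to the sum of *Gria1*, *Gria3* and *Gria4*, in FPKM, was 0.388 to 0.423 in controls and 0.407 to 0.438 in *Mettl3*-CKO samples, and these ranges overlapped.

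Kainate receptors combine GluK1 to GluK3 (*Grik1* to *Grik3*), which form channels on their own, with GluK4 and GluK5 (*Grik4*, *Grik5*), which need them as partners. *Grik2* (ENSMUSG00000056073, chr10:49094833-49788766, minus strand, GRCm38) had 82.8, 60.4, 57.9 and 61.8 CPM in control replicates 1 to 4. In *Mettl3*-CKO replicates 1 to 4 it had 45.95, 44.8, 45.95 and 50.6 CPM. All 4 mutant samples lay below all 4 controls, and control replicate 1 stood far above the other controls. The means were 65.7 ± 11.5 CPM in controls and 46.8 ± 2.58 CPM in *Mettl3*-CKO retinas (SD, n = 4), a level 1.40-fold higher in controls. The log2 fold change was -0.49 (SE 0.11, 95% interval -0.74 to -0.24, adjusted p = 0.0186, edgeR). Without control replicate 1 the log2 fold change was smaller, at -0.36, and remained called (adjusted p = 0.00800). Without *Mettl3*-CKO replicate 1, 2 or 3 it was -0.47 in each case, and the adjusted p rose to 0.0718, 0.0551 and 0.0524, past the threshold.

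The other 4 kainate subunits had estimates close to 0. *Grik5*, the most abundant subunit of all, had 102, 143, 154 and 144 CPM in controls and 138, 142, 119 and 135 CPM in *Mettl3*-CKO samples. *Grik3* had 89.5, 130.0, 145 and 142 CPM in controls and 118, 135, 111 and 132 CPM in mutants. For both genes control replicate 1 was the lowest of the 8 samples, the opposite of its place for *Grik2*. The log2 fold changes were -0.03 (SE 0.12, interval -0.29 to 0.23) and -0.03 (SE 0.14, interval -0.32 to 0.27). *Grik4* and *Grik1* had estimates of -0.01 and -0.08, and neither was called.

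**Figure D4:**
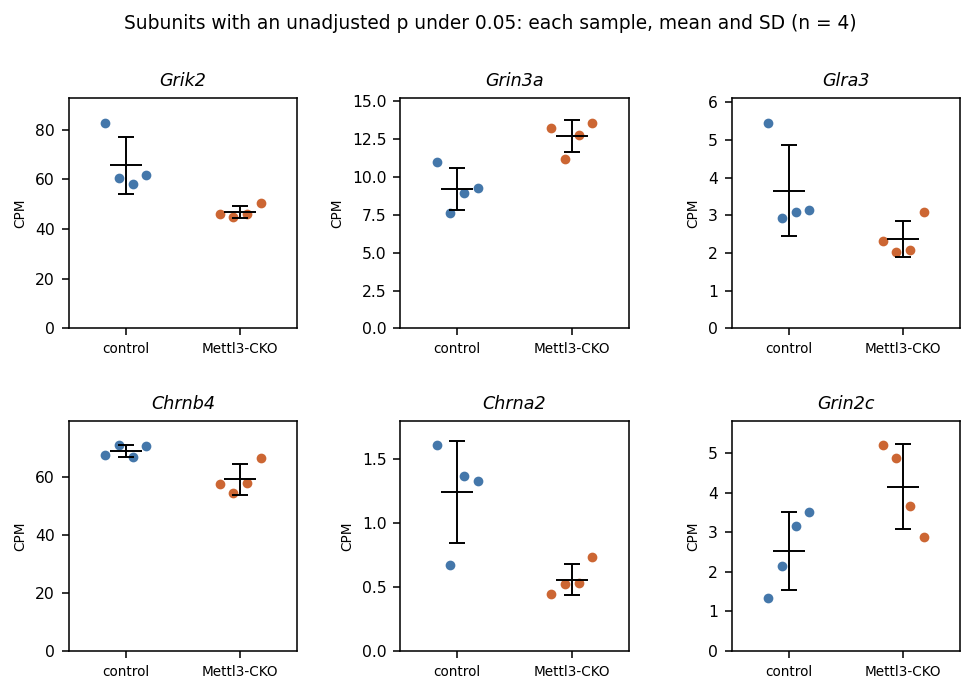
CPM (y axis, from 0) of 6 subunits with an unadjusted p under 0.05 in each control (blue) and *Mettl3*-CKO sample (orange), with the mean and SD (n = 4, black). Groups do not overlap for *Grik2*, *Grin3a* and *Chrnb4*, and only *Grik2* and *Grin3a* pass the adjusted threshold.

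NMDA receptors need GluN1 (*Grin1*), which binds glycine, together with GluN2 subunits (*Grin2a* to *Grin2d*), which bind glutamate, or GluN3 subunits (*Grin3a*, *Grin3b*). GluN3A, encoded by *Grin3a*, lowers the calcium permeability of the receptor and is known as a subunit of the immature nervous system. *Grin3a* (ENSMUSG00000039579, chr4:49661611-49845744, minus strand, GRCm38) had 10.97, 7.59, 8.92 and 9.25 CPM in control replicates 1 to 4. In *Mettl3*-CKO replicates 1 to 4 it had 13.2, 11.2, 12.8 and 13.6 CPM. Each mutant sample lay above each control, by a narrow margin between *Mettl3*-CKO replicate 2 and control replicate 1. The means were 9.18 ± 1.39 CPM in controls and 12.7 ± 1.05 CPM in mutants (SD, n = 4), a 1.38-fold higher level. The log2 fold change was 0.47 (SE 0.14, 95% interval 0.17 to 0.76, adjusted p = 0.0456, edgeR). That p was close to the threshold, and the call was lost when any sample but control replicate 1 was left out, with adjusted p between 0.0513 (without *Mettl3*-CKO replicate 2) and 0.128 (without control replicate 2). Leaving out control replicate 1 gave 0.57 with an adjusted p of 0.00897. The estimate was positive in all 8 of these fits, between 0.39 and 0.57.

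*Grin1* had 32.3, 27.8, 29.8 and 25.98 CPM in controls and 20.8, 24.3, 23.9 and 30.4 CPM in *Mettl3*-CKO samples. *Grin2b*, the GluN2 subunit typical of immature synapses, had 41.7, 53.5, 55.4 and 52.9 CPM in controls and 51.8, 56.3, 48.98 and 60.2 CPM in mutants. Neither gene was called, with log2 fold changes of -0.22 (SE 0.12, interval -0.48 to 0.04) and 0.09 (SE 0.11, interval -0.14 to 0.33). Exons of *Grin1* share 13.5% of their bases with the antisense gene *Grin1os*, and the counting was not stated to use strand. *Grin2c* was picked out after its values were seen, as were the other subunits with an unadjusted p under 0.05 that were not called. It had 1.34, 2.14, 3.15 and 3.50 CPM in controls and 5.20, 4.87, 3.67 and 2.88 CPM in mutants, in overlapping groups, and its log2 fold change of 0.71 (SE 0.29) did not pass (adjusted p = 0.149). The remaining members *Grin2a*, *Grin2d* and *Grin3b* had estimates of -0.31, -0.06 and -0.36, and exons of *Grin3b* share 32.1% of their bases with *Tmem259*. The ratio of *Grin2a* to *Grin2b* in FPKM, which rises as the brain matures, was 0.0698 to 0.153 in controls and 0.0756 to 0.110 in *Mettl3*-CKO samples, in overlapping ranges.

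**Figure D5:**
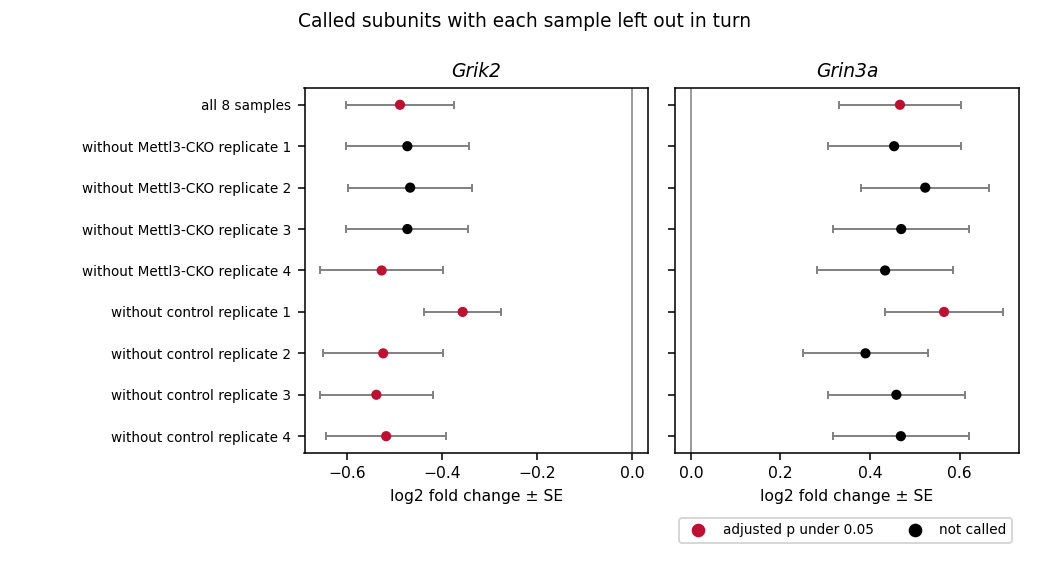
Log2 fold change ± SE (x axis) of *Grik2* and *Grin3a* from edgeR with all 8 samples and with each sample left out in turn (y axis), in red where the adjusted p is under 0.05. *Grik2* stays between -0.54 and -0.36 and is called in 5 of the 8 reduced fits, and *Grin3a* stays between 0.39 and 0.57 and is called in 1.

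GABA-A receptors are pentamers, mostly of alpha, beta and gamma or delta subunits, and this was the largest class, with 14 of 16 genes tested and none called. *Gabra3*, an alpha subunit, had 43.7, 30.1, 29.2 and 26.5 CPM in controls 1 to 4 and 28.7, 26.96, 31.7 and 32.4 CPM in *Mettl3*-CKO samples 1 to 4. *Gabra2*, an alpha subunit abundant early in development, had 56.7, 36.5, 33.7 and 46.7 CPM in controls and 35.00, 53.2, 34.5 and 39.97 CPM in mutants. For each gene control replicate 1 was the highest of the 8 samples, and the groups overlapped. The log2 fold change was -0.11 (SE 0.14, interval -0.42 to 0.19) for *Gabra3* and -0.09 (SE 0.17, interval -0.47 to 0.28) for *Gabra2*. *Gabrb2* had an estimate of 0.01 (SE 0.12) and *Gabrb1* of 0.15 (SE 0.15). The delta subunit gene *Gabrd*, whose product forms receptors outside synapses, had -0.24 (SE 0.22). Over the class the estimates ran from -0.24 (*Gabrg1* and *Gabrd*) to 0.29 (*Gabra5*), 8 positive and 6 negative. *Gabra3*, *Gabra2*, *Gabrb2*, *Gabrb1* and *Gabrd* were chosen for description after their values were seen.

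Many of these genes lie in tandem. By GRCm38 position, 27 of the 56 genes fell into 10 clusters in which neighbours were under 1000000 bases apart, and the 56 genes were spread over 14 chromosomes. The chr5 cluster of *Gabrg1*, *Gabra2*, *Gabra4* and *Gabrb1* ran from -0.24 to 0.15, and the chrX cluster of *Gabre*, *Gabra3* and *Gabrq* from -0.22 to 0.26. None of the clustered genes that could be tested was called, beside 10.5% of all genes tested, and this difference was not tested. The clustered genes *Chrnd*, *Chrng*, *Chrne*, *Gabra6* and *Gabrr2* had too few counts for a test.

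GABA rho subunits form slow receptors found above all on bipolar cell terminals. *Gabrr3* had 9.63, 5.94, 2.73 and 4.89 CPM in controls and 5.03, 3.36, 5.37 and 7.96 CPM in *Mettl3*-CKO samples. *Gabrr1* had 0.856, 0.551, 0.420 and 0.725 CPM in controls and 0.498, 0.232, 0.744 and 0.489 CPM in mutants. Spread within each group was wide against the means, and neither gene was called. The log2 fold changes of -0.09 (SE 0.33, interval -0.81 to 0.63) and -0.37 (SE 0.41, interval -1.24 to 0.51) leave a 1.5-fold change in either direction within the error of *Gabrr3*, and a larger fall within that of *Gabrr1*. The summed level of the 12 listed bipolar markers overlapped between the groups, at 1425 to 1528 CPM in mutants and 1358 to 1647 CPM in controls.

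Glycine receptors combine alpha subunits (*Glra1* to *Glra4*) with the beta subunit, encoded by *Glrb*, which ties them to the scaffold protein gephyrin. *Glra2*, the alpha subunit of immature neurons, had 40.4, 30.6, 30.2 and 29.6 CPM in controls and 26.7, 28.9, 32.5 and 30.2 CPM in *Mettl3*-CKO samples. *Glrb* had 41.8, 26.8, 22.9 and 25.02 CPM in controls and 36.8, 28.8, 31.3 and 38.8 CPM in mutants. In both genes control replicate 1 was the highest of the 8 samples. The log2 fold changes were -0.15 (SE 0.12, interval -0.39 to 0.10) and 0.22 (SE 0.17, interval -0.15 to 0.59), and neither was called. Without control replicate 1 *Glrb* was called as higher, at 0.45 (adjusted p = 0.0125). *Glra3* had 5.46, 2.94, 3.09 and 3.14 CPM in controls and 2.32, 2.03, 2.07 and 3.08 CPM in mutants. Its log2 fold change of -0.62 (SE 0.25, adjusted p = 0.143) shrank to -0.36 without control replicate 1, whose level was the highest. *Glra1*, the adult alpha subunit, was too scarce to be tested, and its ratio to *Glra2* in FPKM was 0.0121 to 0.0295 in controls and 0.00426 to 0.0236 in mutants, in overlapping ranges.

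Neuronal nicotinic receptors are built from alpha subunits (*Chrna2* to *Chrna7*, *Chrna9*, *Chrna10*) and beta subunits (*Chrnb2* to *Chrnb4*), and 9 of the 11 genes were tested with none called. *Chrnb4*, the most abundant, had 67.7, 70.97, 66.99 and 70.8 CPM in controls 1 to 4 and 57.7, 54.4, 58.01 and 66.6 CPM in *Mettl3*-CKO samples 1 to 4. The groups did not overlap, though *Mettl3*-CKO replicate 4 lay below the lowest control by a narrow margin only. The log2 fold change of -0.22 (SE 0.09, interval -0.41 to -0.04) did not pass after adjustment (adjusted p = 0.129). *Chrnb4* lies beside *Chrna3* and *Chrna5* on chr9, and these had estimates of -0.04 and 0.02. *Chrna6* had 47.1, 26.6, 23.1 and 25.6 CPM in controls and 29.2, 25.3, 29.2 and 30.2 CPM in mutants. Its level in control replicate 1 was far above that in every other sample, and the log2 fold change was -0.10 (SE 0.19, interval -0.51 to 0.30) with all samples and 0.18 without that sample, not called in either case.

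*Chrna2*, a rare alpha subunit with 131 counts in all, had the largest estimate of the 45 subunits. It had 1.61, 0.674, 1.36 and 1.33 CPM in controls and 0.442, 0.522, 0.531 and 0.733 CPM in *Mettl3*-CKO samples. The groups overlapped through control replicate 2, which lay below *Mettl3*-CKO replicate 4. The log2 fold change of -1.15 (SE 0.35, interval -1.90 to -0.40) fell just short of the threshold (adjusted p = 0.0521), and passed without control replicate 2 (log2 fold change -1.34, adjusted p = 0.0378). *Chrnb2*, which pairs with alpha subunits in the receptors of early retinal waves, and *Chrnb3* had estimates of 0.20 and 0.24, and *Chrnb3* was called as higher when control replicate 1 was left out. Exons of *Chrnb2* share 16.3% of their bases with the neighbouring gene *Adar*. The remaining *Chrna4* and *Chrna7* had estimates of -0.01 and 0.18.

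Of the subunits of the muscle receptor, at the nerve-muscle junction, only *Chrnb1* was tested. It had 5.51, 7.59, 7.66 and 8.76 CPM in controls and 6.86, 6.09, 5.90 and 7.43 CPM in *Mettl3*-CKO samples, in overlapping groups, with a log2 fold change of -0.17 (SE 0.16, interval -0.52 to 0.19). *Chrne*, the adult subunit, had 4, 3, 12 and 5 counts in controls and 6, 3, 1 and 8 counts in mutants, at or near the floor of 3 counts. Of the 31 counts of *Chrng*, the fetal subunit, 27 were in control replicate 4, the sample rich in lens genes. Of 6 tested skeletal muscle markers 1 fell (*Mylpf*), and the summed level of the 17 listed markers was 27.3 to 30.5 CPM in mutants and 32.8 to 40.2 CPM in controls.

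With control replicate 1 left out, 6 of 44 tested subunits (13.6%) were called, beside 17.4% of all genes in the same fit. *Chrnb3*, *Glrb* and *Grin3a* were among the 5 called higher then, and *Grik2* was lower. The share of subunits called was below that of all genes there too, and without a filter the shares were 5.66% and 6.23%. These differences rest on few called subunits and were not tested. Rod markers summed to 5577 CPM in control replicate 1, against 3515 to 4078 CPM in the other controls, and ganglion cell markers to 877 against 603 to 661 CPM.

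The m6A mark is written mostly near stop codons, in a short sequence of which GGACT, as spelled in DNA, is a common form. The letters were searched on the coding strand in a window of 400 bases around the stop codon, 200 on each side, in 1 transcript a gene. Of 39 tested subunits with a full window 15 (38.5%) held GGACT, beside 40.6% of 12246 tested protein-coding genes. Neither the count nor the position of these letters says that a site is methylated. The nearest match to the stop codon is shown for both called subunits, with the 5 letters in capitals.
Grin3a: aggacgaaccGGACTtgtgaatcct
Grik2: ataagactggGGACTtgtcacctat
The match in *Grin3a* lay 14 bases before the end of the stop codon, in the coding part of exon 9 (chr4:49665238-49665242). In *Grik2* no match fell inside the window, and the nearest lay 970 bases after the stop codon, in exon 17 (chr10:49100136-49100140).

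Receptors work with auxiliary subunits, scaffolds and chaperones, and 84 genes of 6 lists of such partners and of other transmitter-gated channels were found, of which 81 were tested. Of these 3 rose and 8 fell (edgeR, adjusted p under 0.05), and the median log2 fold change was -0.08, beside -0.01 over all genes. As shares, 3.70% rose and 9.88% fell, beside the 6.49% and 4.05% of all genes given above. Among 15 AMPA receptor auxiliary subunits 3 fell and 1 rose. *Cacng3*, which carries AMPA receptors to the synapse, fell from 44.7, 45.6, 49.1 and 42.8 CPM in controls to 27.5, 31.8, 32.8 and 36.2 CPM in *Mettl3*-CKO samples (log2 fold change -0.51, SE 0.10, adjusted p = 0.00719). *Cnih3*, a cornichon that slows channel closing, fell from 3.53, 3.98, 4.88 and 3.69 to 1.66, 1.39, 2.66 and 2.35 CPM (-0.99, SE 0.23, adjusted p = 0.0195). *Gsg1l*, whose protein dampens AMPA receptor currents, fell from 15.1, 15.7, 16.2 and 15.7 to 8.74, 11.5, 12.2 and 12.6 CPM (-0.48, SE 0.13, adjusted p = 0.0329). All 4 mutants lay below all 4 controls for each of these genes, while the *Gria* genes themselves were not called. *Olfm1*, which encodes a secreted protein found with AMPA receptors, rose from 186, 181, 184 and 177 to 242, 225, 202 and 212 CPM (0.28, SE 0.08, adjusted p = 0.0383).

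Among 12 partners of kainate, NMDA and delta glutamate receptors 2 fell, both encoding secreted proteins of the C1q family that bridge synapses. *Cbln1* fell from 29.5, 26.8, 27.7 and 24.8 CPM in controls to 9.57, 15.5, 13.5 and 16.6 CPM in *Mettl3*-CKO samples (log2 fold change -0.98, SE 0.15, adjusted p = 0.00204). *C1ql1* fell from 35.95, 35.6, 37.3 and 37.3 to 19.8, 27.2, 24.8 and 28.2 CPM (-0.55, SE 0.11, adjusted p = 0.00875). The groups were apart for both, and for *Cbln1* the highest mutant lay well below the lowest control. Of 15 scaffolds and partners of GABA-A and glycine receptors only *Trak2*, an adaptor of mitochondrial transport that binds GABA-A receptors, was called, and fell from 587, 507, 553 and 535 to 378, 390.0, 419 and 478 CPM (-0.39, SE 0.09, adjusted p = 0.0204).

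Of 12 tested chaperones and partners of nicotinic receptors 1 fell. *Lrp4*, the agrin receptor that gathers muscle receptors, had 267, 312, 358 and 413 CPM in controls and 143, 184, 202 and 272 CPM in *Mettl3*-CKO samples, overlapping through *Mettl3*-CKO replicate 4 and control replicate 1 (-0.75, SE 0.18, adjusted p = 0.0182). Among 7 tested receptors for ATP and serotonin, *P2rx3*, an ATP-gated channel, fell from 5.99, 4.35, 3.30 and 4.71 to 2.88, 3.02, 1.65 and 2.83 CPM (-0.82, SE 0.24, adjusted p = 0.0458). *Htr3a*, the subunit that every serotonin-gated channel needs, rose from 0.696, 0.674, 0.839 and 0.423 to 3.48, 1.33, 1.97 and 1.32 CPM (1.60, SE 0.38, adjusted p = 0.0193). Both are rare transcripts, and their groups did not overlap. The number of these partner genes called depended on single samples, and so did the share of all genes called, given in brackets. Without *Mettl3*-CKO replicate 1 it was 3 lower and 0 higher (3.79% of all genes). It was 3 lower and 2 higher without *Mettl3*-CKO replicate 2 (7.14%), and 4 lower and 3 higher without replicate 3 (6.17%). Without *Mettl3*-CKO replicate 4 it was 8 lower and 2 higher (8.64%). It was 10 lower and 3 higher without control replicate 1 (17.4%), and 5 lower and 1 higher without control replicate 2 (5.73%). Without control replicate 3 it was 5 lower and 2 higher (7%), and without control replicate 4 6 lower and 1 higher (7.12%).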

How the data were processed

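RNA from 4 *Mettl3*-CKO and 4 control samples of mouse retina was extracted with TRIzol and sequenced as paired reads from NEBNext Ultra libraries. According to the methods and the submitters' processing notes, the authors mapped the reads to GRCm38 (mm10) (HISAT2) and then assigned them to genes (featureCounts). The deposited values are raw counts, not normalized. The annotation release and the strand setting were not given in the sources used here, so overlapping genes are uncertain. The members and gene lists were chosen with earlier results of these data known.

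The test was edgeR 4.0.16 under R 4.3.3 (filterByExpr, TMM, quasi-likelihood test, Benjamini-Hochberg adjustment over all 17998 genes tested, threshold 0.05), over both groups with genotype as the only term. The procedure was tested on simulated counts, with planted changes larger than those of *Grik2* and *Grin3a* and no sample that stood apart. That test therefore does not cover changes as small as these. Confidence intervals are 95%. CPM used TMM-scaled totals. FPKM was calculated from the counts, the gene lengths of the deposited table and the same totals. Alternatives were DESeq2 1.42.0, limma 3.58.1 (voom), other scalings and filters, a replicate block, another threshold, and leaving out samples. Totals were 16227095 to 20281517 counts per sample, and a floor of 3 counts is at most 0.185 CPM. The floor covers counting error only, and the intervals the spread between samples. Nothing says whether samples came from separate animals, so p-values measure the spread between these samples. No 2 samples agreed within sampling noise (lowest chi-square 5.47 per gene). Results on some listed genes are not reported here. Named subunits are otherwise those called, and the 2 uncalled members of each class with the highest control FPKM. The ratio of *Chrng* to *Chrne* was not computed, since both lay near the floor. Gene models came from GENCODE transcripts of GRCm38. Versions of the authors' tools are not used here.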

Additional observations from a re-analysis of the deposited data

Results flagged for a closer look

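In 120 groups of 4 samples (reported subunits with at least 10 counts in all, class sums and ratios, each within controls or within *Mettl3*-CKO samples), the highest or the lowest sample was compared with its nearest neighbour by Dixon's test. It stood apart in 13 groups, where about 6 would by chance if the groups were separate, and 10 of the 13 were high values of control replicate 1. Of the 13, 8 were subunits and 5 were sums. The sums are built from the same subunits, so the groups are not separate and the chance number is only rough. Among subunits, control replicate 1 had 5.89 CPM of *Gabra5* (other controls 3.74 to 4.04), 7.12 CPM of *Gabrg1* (3.83 to 4.35) and 40.4 CPM of *Glra2* (29.6 to 30.6). It also had 5.46 CPM of *Glra3* (2.94 to 3.14), 82.8 CPM of *Grik2* (57.9 to 61.8) and 47.1 CPM of *Chrna6* (23.1 to 26.6). Its summed levels were 67.1 FPKM for GABA-A subunits (48.0 to 49.6), 22.6 FPKM for glycine subunits (15.2 to 16.3), 71.4 FPKM for neuronal nicotinic subunits (62.5 to 63.3) and 264 FPKM for all subunits (234 to 235).

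*Mettl3*-CKO replicate 4 stood apart with 256 FPKM for all subunits, against 237 to 239 FPKM in the other mutants. *Chrng* stood apart in control replicate 4, at 1.63 CPM against 0 to 0.105 CPM, and in *Mettl3*-CKO replicate 4, at 0.0977 CPM against 0, which is under the floor of 3 counts.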

How the results depend on the processing

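*Grik2* and *Grin3a* kept their direction in all 16 alternatives, and both were called with DESeq2, limma voom, other size factors, library totals alone, no filter, a filter of 10 counts in 4 samples and the replicate block. Without a filter, 2 subunits were called lower (*Chrng* and *Grik2*), and so were 2 at an adjusted p of 0.1 (*Chrna2* and *Grik2*). With 1 sample left out, 0 to 5 subunits were called higher and 0 to 2 lower, and 0 to 3 partner genes higher and 3 to 10 lower. The share of all genes called varied as well in these fits, between 3.79% and 17.4%. The largest share belonged to the fit lacking control replicate 1, which gave the 5 subunits called higher and the 10 partner genes called lower. The 2 subunits called lower came from the fit lacking control replicate 2, at 5.73% of all genes. With both control replicates 1 and 4 left out, a choice made after seeing the data, 1 partner gene was called higher and 8 lower. *Grik2* and *Grin3a* were both called in that fit, beside 9.87% of all genes. *Mettl3* was called by DESeq2 (log2 fold change -0.38, adjusted p = 0.0320) and without *Mettl3*-CKO replicate 2 (-0.49, adjusted p = 0.0185), with -0.49 to -0.31 over samples left out. No class mean of log2 CPM moved by more than its spread between replicates, but leaving out 1 of 4 samples can hardly exceed that limit. With 1 sample left out, the difference between groups ran from -0.065 to 0.028 for all subunits and from -0.22 to 0.014 for glycine subunits. It ran from -0.0052 to 0.14 for NMDA, from -0.0081 to 0.13 for GABA-A and from -0.41 to 0.039 for GABA rho subunits. Each of these ranges crossed 0, and the other classes kept their sign.

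Only some subunits were followed over these fits, and others near 0, such as *Gria1* and *Grik4*, were not. Among those followed, these uncalled subunits changed sign with 1 sample left out: *Gria4* (-0.026 to 0.126), *Gabrr3* (-0.33 to 0.28), *Grik5* (-0.142 to 0.040), *Grik3* (-0.162 to 0.046) and *Chrna6* (-0.21 to 0.18). *Gabrr3* was 0.0043 with limma voom. Without control replicates 1 and 4, *Gabrr3* was 0.35, *Gabrr1* 0.03, *Chrna6* 0.20 and *Grin2b* -0.0050. The causes were not tested. *Gabrr1* gave no value with DESeq2, without control replicate 1 or without *Mettl3*-CKO replicate 3, where it was filtered out.

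Whether replicate numbers pair the samples was left undecided. Deviations of same-numbered samples correlated between -0.114 and 0.249. Some *Mettl3*-CKO samples correlated best with the control of their own number, and others did not. With so few samples in a group, such mixed values cannot show whether same-numbered samples belong together. With the replicate block, 1 subunit was called higher and 1 lower (*Grik2* at -0.48, *Grin3a* at 0.47), and 2 partner genes higher and 8 lower. Depth limits the 11 subunits without a test and the rarest that were tested.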
